A study of Mus musculus with 9 samples.

Results

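Mouse bone marrow-derived macrophages that received dexamethasone and interleukin 4 (IL-4) were compared with the same cells that received, in addition, medium conditioned by B16F1 melanoma cells. The arrays were chosen by their titles, which gave 6 of the 9 arrays of the study: 3 labelled dexa+IL4 and 3 labelled cmB16F1 and dexa+IL4, the latter called the combination here. Cells from the marrow of C57BL/6 mice were cultured in DMEM with fetal calf serum and macrophage colony-stimulating factor (M-CSF, 30 ng/ml), and the stimuli were added on day 4 and left for 3 days. Both groups received IL-4 at 10 ng/ml and dexamethasone at 5e-07 M. The dexa+IL4 cells were in fresh DMEM and the combination cells in conditioned medium, so the 2 groups also differed in whether other cells had used the medium. Arrays of cells in cmB16F1 without dexamethasone and IL-4 (n = 3) entered the model and are given for their levels only. The labels do not say whether the 3 arrays of a group came from separate cultures or animals, so the p-values measure the spread between these arrays, which may be technical.

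Dexamethasone is a synthetic glucocorticoid that binds the glucocorticoid receptor, a transcription factor that restrains inflammatory genes and raises genes of scavenging and clearance in macrophages. IL-4 acts through its receptor and the factor STAT6 and is the standard stimulus for alternative (M2) activation. Medium conditioned by tumour cells carries secreted proteins and metabolites, and is used in culture to imitate part of what macrophages meet inside a tumour. The title of the study asks how these signals act together on macrophages that express Ms4a8a, a relative of CD20.

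Each array held 17867 rows named by a UniGene cluster number and 64 control rows. The reference table used here tied none of the clusters to a gene, so neither Ms4a8a nor the markers of macrophages or of other cell types could be looked up, and the label of the cells was not checked. Genes are therefore named only where the array maker's control rows name a mouse transcript, and 4 clusters are given by number. Values are on a log2 scale, and 1 unit is a 2-fold difference. Array medians ran from 7.19 to 7.25. Bacterial poly-A control rows, whose transcripts mouse cells lack, lay between 6.09 and 7.00 and mark the low end of the scale, while the highest value of any array was 14.2. The hybridization controls, added in fixed amount to each sample after labelling, averaged 10.03, 10.22 and 10.17 in dexa+IL4 and 10.31, 10.55 and 10.31 in the combination. They were thus higher in all 3 combination arrays, by 0.26 on the log2 scale (exact two-sided permutation p = 0.1, the smallest that 3 against 3 arrays allow).

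Among the transcripts that could be named, the transferrin receptor fell in the combination, Gapdh rose, and beta-actin and pyruvate carboxylase did not pass the test. In limma with Benjamini-Hochberg adjustment, 6 of the 19 mouse control sets were called at an adjusted p under 0.05, 3 lower and 3 higher, beside 17.8% of all cluster rows. The 6 sets belong to only 2 transcripts, each probed at both ends (3′ and 5′) and in the middle, so they are not independent of each other.

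The transferrin receptor (Tfrc) carries transferrin-bound iron into the cell, and its level in macrophages is known to follow iron supply and growth. Its 3′ set read 10.51, 10.62 and 10.33 in the dexa+IL4 arrays and 8.85, 8.47 and 8.63 in the combination arrays. The groups were far apart, and each combination array lay over 1 log2 unit below each dexa+IL4 array. The difference was -1.84 (limma adjusted p = 5.925e-06, 95% confidence interval from -2.06 to -1.62), which left the combination at 28.0% of the dexa+IL4 level. Only 3 of the 17867 cluster rows had a larger fall. The 5′ set fell by 1.59 on the log2 scale, to 7.42, 7.00 and 7.20 from 8.89, 8.95 and 8.55 (limma adjusted p = 3.589e-05). The middle set fell by 1.63 on the log2 scale, to 7.77, 7.34 and 7.40 from 9.16, 9.31 and 8.94 (limma adjusted p = 2.863e-05). All 3 sets thus gave a fall of about the same size, and for the 5′ and middle sets only 6 cluster rows had a larger one. At the 5′ set the combination lay near the 7.00 of the highest bacterial control, so that its fall may be understated. In cmB16F1 without dexamethasone and IL-4 the 3′ set was at 7.14 ± 0.05 (SD, n = 3), below both groups compared.

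Gapdh, an enzyme of glycolysis, rose 1.54-fold at its 3′ set, with combination values of 12.87, 12.96 and 12.72 against dexa+IL4 values of 12.25, 12.25 and 12.19. Its middle set read 12.85, 12.81 and 12.58 against 12.14, 12.11 and 12.08, a 1.55-fold rise. The groups did not overlap at either set, beside 36.1% of all cluster rows without overlap, and combination replicate 3 was the lowest of its group at both. The differences were 0.62 at the 3′ set and 0.63 at the middle set (limma adjusted p = 1.836e-04 and 3.961e-04). Of the cluster rows, 320 had a larger rise than the 3′ set, so the change of Gapdh was more common in size than that of Tfrc. The 5′ set rose less, by 0.48 (limma adjusted p = 0.0219, 95% confidence interval from 0.21 to 0.75). That call was lost under 7 of 18 alternative settings, among them the omission of replicate 1 or 3 of dexa+IL4 and of replicate 1 or 2 of the combination (limma adjusted p between 9.220e-04 and 0.114 over the 18). In cmB16F1 the 3′ set was at 13.14 ± 0.06 (SD, n = 3), above both groups compared.

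Beta-actin (Actb), a filament protein of the cytoskeleton, read 13.75, 13.70 and 13.76 at its 3′ set in the combination and 13.71, 13.75 and 13.58 in dexa+IL4. The groups overlapped, and the difference of 0.06 missed the threshold (limma adjusted p = 0.527, 95% confidence interval from -0.06 to 0.18). With the arrays scaled to the hybridization controls it was -0.20 and still missed the threshold, while the 5′ set, at -0.10 as deposited, was called at -0.36 (limma adjusted p = 0.0212, against 0.738 as deposited and up to 0.942 over the 18 alternatives). The scaled fit also gave rows of like brightness the same spread, so its p-values are not comparable with the others. Since scaling shifts every row of an array alike, differences between 2 transcripts of the same array were compared as well. The Tfrc minus Actb difference at the 3′ sets was 1.90 lower in the combination, where it ran from -5.22 to -4.91, than in dexa+IL4, where it ran from -3.25 to -3.13. The Gapdh minus Actb difference was 0.57 higher, with -1.04 to -0.74 against -1.50 to -1.39. In both the 3 arrays of each group stood apart (exact two-sided permutation p = 0.1, the smallest possible, and 0.14 after Benjamini-Hochberg adjustment over 7 such measures). These differences do not move with a factor applied to a whole array, but the 3′ Actb values lay near the top of the scale, where differences may be compressed.

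Pyruvate carboxylase (Pcx), which makes oxaloacetate from pyruvate, passed at 0 of its 4 sets in limma and had differences between -0.08 and -0.002. An unadjusted p under 0.05 was seen at 1 of the 4 sets, beside 31.0% of all cluster rows. The 5′ set of Pcx, with a 95% confidence interval from -0.15 to -0.01 and arrays that did not overlap, had an unadjusted interval that left out 0 but missed the adjusted threshold (limma adjusted p = 0.130). Arrays did not overlap in 36.1% of all cluster rows either. Scaling to the hybridization controls and quantile normalization each brought the Pcx 5′ set past the threshold, the former with p-values that are not comparable with the others. Both groups lay between 7.18 and 7.54 at these sets, little above the bacterial controls, so that small differences may not be detectable there.

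Ribosomal 18S RNA has no poly-A tail, and its signal on arrays primed from that tail reflects carry-over of ribosomal RNA. Its 3′ set read 9.39, 9.98 and 10.45 in the combination against 9.17, 9.17 and 9.29 in dexa+IL4, highest in combination replicate 3. The groups did not overlap at the 3′, 5′ or middle set, beside 36.1% of all cluster rows without overlap. The combination arrays spread widely and none of the 3 sets passed (differences of 0.73, 0.60 and 0.68, limma adjusted p = 0.153, 0.222 and 0.0995). An unadjusted p under 0.05 was seen at 2 of the 3 sets, beside 31.0% of all cluster rows. The 3′ set passed under 2, the 5′ set under 1 and the middle set under 4 of 18 alternatives. Scaling to the hybridization controls, whose p-values are not comparable with the others, was among these for each set. The part of this signal in the other results was not tested. None of the 3 sets for the short B1 and B2 repeats passed, with differences between -0.01 and 0.07. An unadjusted p under 0.05 was seen at 0 of them, beside the same 31.0% of all cluster rows. The 3′ minus 5′ difference, a measure of how far the RNA or its copies were shortened, was 0.99 ± 0.11 in dexa+IL4 and 1.15 ± 0.22 in the combination for Actb (SD, n = 3; exact permutation p = 0.3), and 0.30 ± 0.08 and 0.45 ± 0.19 for Gapdh (exact permutation p = 0.4). For Tfrc it went the other way, with 1.69 ± 0.08 in dexa+IL4 and 1.44 ± 0.03 in the combination, without overlap (exact permutation p = 0.1, the smallest possible), but the 5′ set of the combination lay near the bacterial controls.

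**Figure D1:**
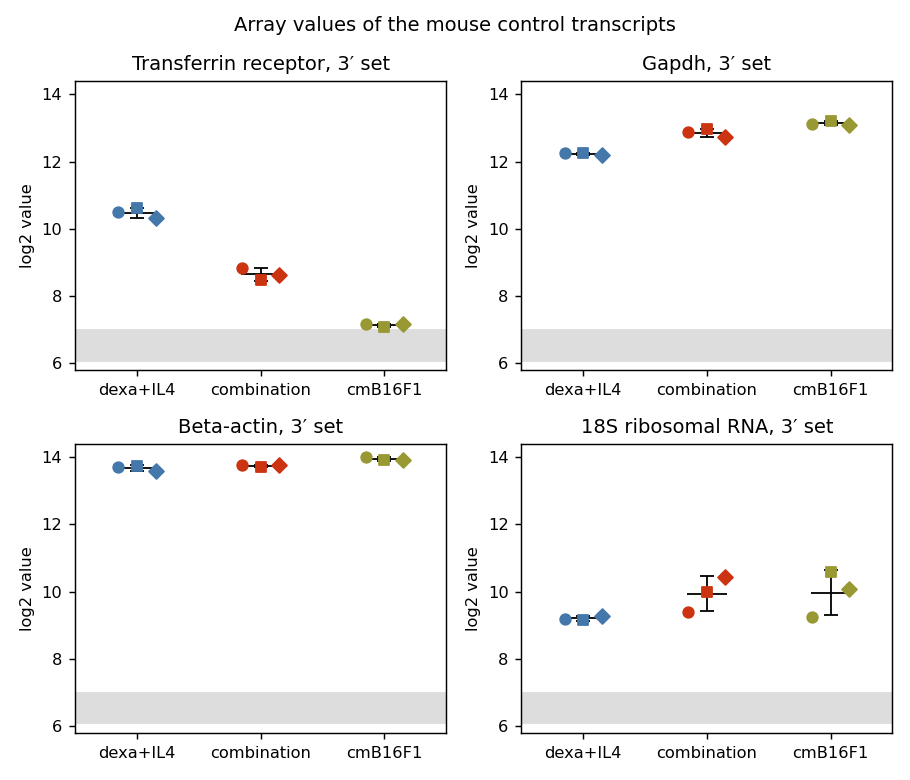
Log2 values of the 3′ control sets for transferrin receptor, Gapdh, beta-actin and 18S ribosomal RNA in the 3 groups (circles, squares and diamonds are replicates 1, 2 and 3; bars are the mean and SD; the grey band spans the bacterial poly-A controls). Tfrc falls from 10.49 in dexa+IL4 to 8.65 in the combination, Gapdh rises from 12.23 to 12.85, and the beta-actin groups overlap.

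The largest differences were found in clusters that could not be named. The 2 largest fitted rises and the 2 largest fitted falls are given, among rows that passed the test, whose arrays did not overlap between the groups and whose brighter group lay above the median row. Cluster Mm.30438 read 6.57, 6.98 and 6.60 in dexa+IL4 and 11.44, 11.80 and 9.39 in the combination. In dexa+IL4, replicates 1 and 3 lay below the highest bacterial control of their arrays, and replicate 2 lay just above its own, 6.93. With dexa+IL4 values below that control raised to it, the mean of the combination was 14.7-fold higher. That is a ratio of group means and not a lower limit for each array. The fitted difference was 4.16 (SE 0.593, limma adjusted p = 0.00115), which rests on those values at background and is not exact, so that its place before or after the next cluster is not settled. Combination replicate 3 stood more than 2 log2 units below the other two, and without it the difference was 4.90. In cmB16F1 the cluster was at 10.84 ± 0.92 (SD, n = 3), within the range of the combination arrays.

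Cluster Mm.235105 read 8.74, 8.88 and 8.34 in dexa+IL4 and 13.30, 12.52 and 11.81 in the combination, a 14.8-fold rise (difference 3.89, SE 0.324, limma adjusted p = 6.243e-05). Its lowest combination array was again replicate 3, still about 3 log2 units above the highest dexa+IL4 array. Its level in cmB16F1 was 11.65 ± 0.36 (SD, n = 3).

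Cluster Mm.422943 had the largest fitted fall, from 12.56, 12.75 and 12.67 in dexa+IL4 to 6.91, 7.59 and 8.07 in the combination. That is 35.2-fold lower (difference -5.14, SE 0.236, limma adjusted p = 3.051e-06), and the only fall of at least 4-fold among the rows called. Replicate 1 of the combination lay below the highest bacterial control, 7.00, so the fall may be understated, and replicate 3 kept the most signal. The cluster was at 6.64 ± 0.22 (SD, n = 3) in cmB16F1, within the range of those controls.

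The next largest fitted fall, of cluster Mm.28756, was 3.95-fold (difference -1.98, SE 0.153, limma adjusted p = 4.496e-05), from 9.15, 8.96 and 8.92 to 6.89, 6.85 and 7.35. Replicates 1 and 2 of the combination lay below the highest bacterial control of their arrays, so this fall may be understated too. In cmB16F1 it was at 7.85 ± 0.26 (SD, n = 3), between the groups compared. All 4 clusters were called under each of 18 alternatives, though passing the test was also a condition of their choice.

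**Figure D2:**
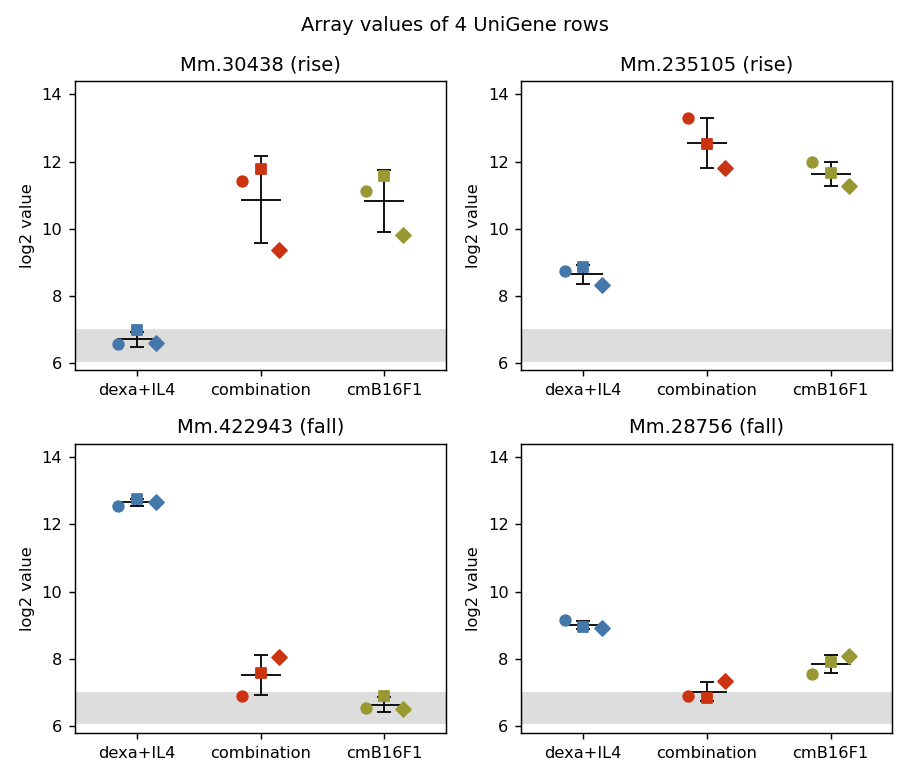
Log2 values of the 4 clusters with the largest fitted rises and falls in the 3 groups (circles, squares and diamonds are replicates 1, 2 and 3; bars are the mean and SD; the grey band spans the bacterial poly-A controls). Mm.30438 goes from 6.72 in dexa+IL4 to 10.87 in the combination, and Mm.422943 from 12.66 to 7.52; replicate 3 of the combination lies nearest to dexa+IL4 in each of the 4.

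Across all cluster rows, 1582 were higher (8.85%) and 1602 lower (8.97%) in the combination. Most differences were small: 2573 of these rows (80.8%) changed by less than 1.5-fold. The tails were uneven in size. At least 2-fold rises numbered 120 rows (0.672%) and falls of that size 65 (0.364%). A 4-fold rise or more was seen in 22 rows and such a fall in 1, and for 8-fold the numbers were 7 and 1. Scaling to the hybridization controls moved the median difference from -0.003 to -0.26, and the order turned, with 79 rows at least 2-fold higher and 176 lower, and 5.33% of the called rows were higher instead of 49.7%. With median centring the share was 38.4%. The balance of rises and falls therefore depends on what the arrays are scaled to. Of the 18 alternatives, only scaling to the hybridization controls turned the order of 2-fold changes. Quantile normalization gave 121 rows at least 2-fold higher and 62 lower, and median centring 114 and 77. The hybridization controls enter after labelling, so they cannot show the amount of RNA per cell, which was not tested.

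The number of rows called moved more with arrays left out than with the variance model. It was 2048 without dexa+IL4 replicate 1 and 2091 without its replicate 3, and 63.6% and 63.9% of the original calls were among them. No row called in both fits changed direction in any of the 18 alternatives. These fits reuse most or all of the same arrays, and some change only the variance model and keep the same differences. A reversal was therefore hardly possible, and its absence says little. The arrays did not overlap in 6447 rows (36.1%), of which the combination was higher in 3171 (17.7%) and lower in 3276 (18.3%).

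**Figure D3:**
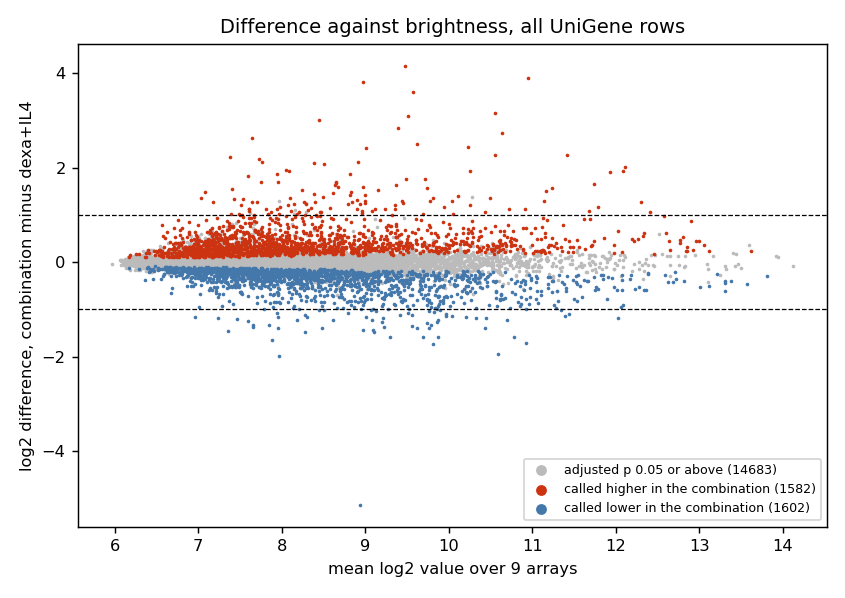
Log2 difference of the group means (combination minus dexa+IL4) of each of 17867 cluster rows against its mean log2 value over 9 arrays; red and blue mark rows called higher and lower, and dashed lines mark a 2-fold difference. The 1582 higher and 1602 lower rows are about equal in number, while 22 rows rise at least 4-fold and a single row, near -5.14, falls as far.

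Brighter rows were called more often. Of the 7077 rows with a mean under 7 on the log2 scale, 4.39% were called, and of the 5714 rows from 7 to 8 it was 20.4%. The share was 43.5% of the 780 rows from 10 to 12 and 54.1% of the 109 rows from 12 upward. The median size of the difference over all rows of a band grew along with this, from 0.04 under 7 to 0.26 from 12 upward. Brightness depends on the probes as well as on the transcript, and its part in these shares was not tested. Higher and lower rows numbered 182 and 129 under 7, 616 and 550 from 7 to 8, and 390 and 449 from 8 to 9. From 9 to 10 (1322 rows) they numbered 195 and 275, from 10 to 12 170 and 169, and from 12 upward 29 and 30.

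Rises from within the control range were more frequent than falls into it. Of the rows called higher, 235 (14.9%) had a dexa+IL4 mean at or below 7.00 and a combination mean above it. Of those called lower, 94 (5.87%) had a combination mean at or below 7.00 and a dexa+IL4 mean above it. Among the changes of at least 2-fold the numbers were 23 of 120 (19.2%) and 5 of 65 (7.69%). For such rows the fitted fold rests on values at background and is not exact. The difference between these shares was not tested, and it rests on the scaling described above.

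**Figure D4:**
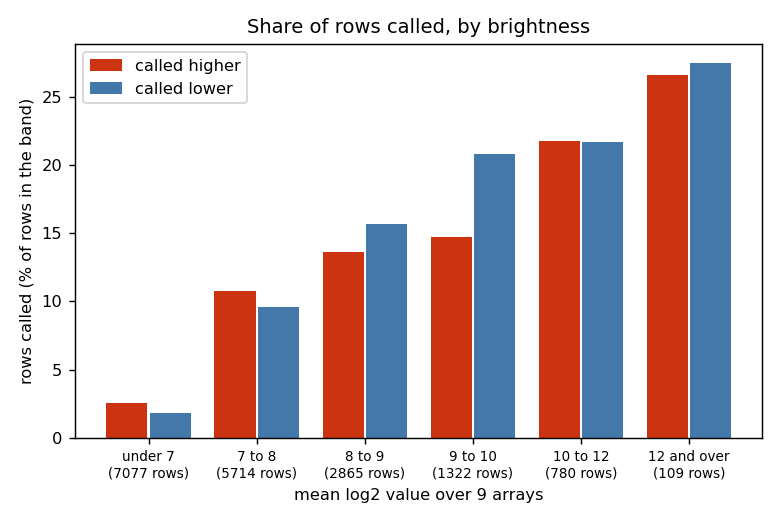
Share of cluster rows called higher (red) and lower (blue) in the combination, in percent of the rows of each band of mean log2 value over 9 arrays. The share called in either direction rises from 4.39% under 7 to 54.1% from 12 upward.

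The 15 largest rises by the rule given for the 4 clusters had fitted differences from 2.26 to 4.16 on the log2 scale, and the 15 largest falls had sizes from 1.43 to 5.14. The rises started from dexa+IL4 means between 6.64 and 10.77, of which 5 were within the control range, and reached 9.37 to 13.93. The falls started from 8.22 to 12.66 and ended between 6.76 and 10.22, with 1 within the control range. Their cmB16F1 means covered 6.75 to 13.20 for the rises and 6.64 to 10.91 for the falls. The rises ranked 5, 7, 9 and 10 had cmB16F1 means of 6.94, 6.80, 8.38 and 6.75. Their dexa+IL4 means were higher, at 10.77, 7.76, 10.39 and 6.77, the last pair within the control range. The other rises had cmB16F1 means above dexa+IL4. The rise ranked 5 reached 13.93, near the top of the scale, so its size may be understated.

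Combination replicate 3 was the array nearest to the dexa+IL4 mean in 11 of the 15 rises and 12 of the 15 falls. Its median distance from that mean was 2.67 in the rises, against 3.04 and 3.00 for replicates 1 and 2, and 1.35 in the falls, against 1.78 and 1.61. Among the 6 arrays compared, this one also had the highest 18S values, as given above, and the part of that in its position was not tested. Replicate 3 of cmB16F1 was likewise nearest to dexa+IL4 in Mm.30438 (9.81 against 11.13 and 11.57), Mm.235105 and Mm.28756, but not in Mm.422943. Within cmB16F1 the 18S 3′ set was highest in replicate 2, at 10.585 against 9.24 and 10.08. A link between same-numbered arrays of cmB16F1 and the combination was not tested. Without combination replicate 3 the counts of at least 2-fold changes were 151 upward and 90 downward.

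**Figure D5:**
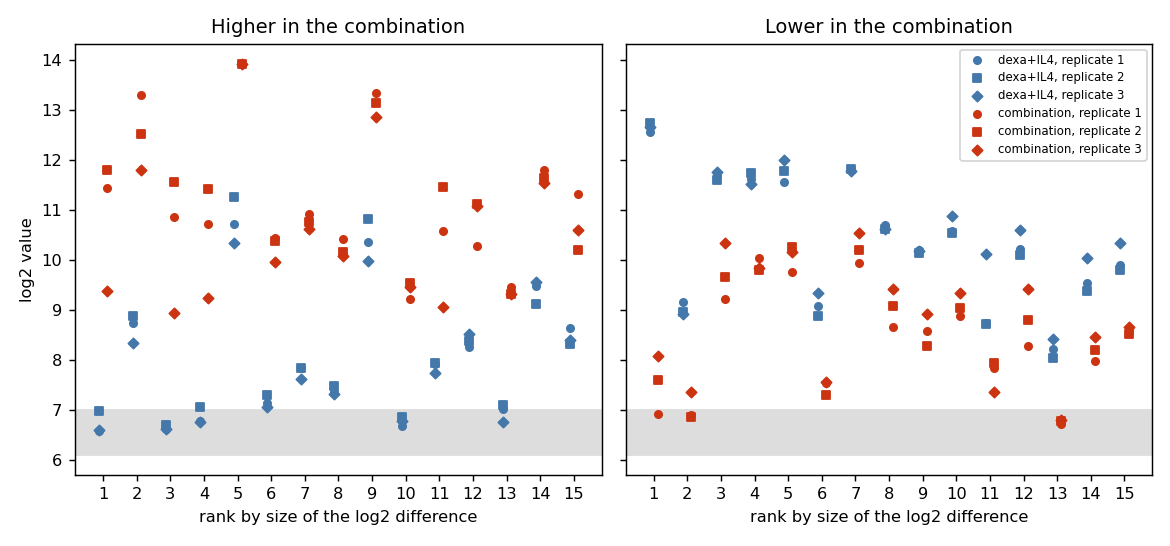
Log2 values by array of the 15 rows with the largest fitted rise (left) and the 15 with the largest fitted fall (right), in order of fitted size; blue is dexa+IL4, red the combination, the marker shape gives the replicate, and the grey band spans the bacterial poly-A controls. Replicate 3 of the combination (red diamonds) lies nearest to the dexa+IL4 arrays in 11 of the rises and 12 of the falls.

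The combination arrays spread more than the dexa+IL4 arrays. The SD over rows of the difference between 2 arrays was 0.146 to 0.163 in the combination and 0.077 to 0.109 in dexa+IL4. The SD of a row over 3 arrays had a median of 0.063 and 0.044, and it was larger in the combination in 12013 rows (67.2%). It was above 0.5 in 78 rows in the combination and in 7 in dexa+IL4. The model gives all groups of a row one estimate of spread.

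The direction of called rows was then read in arrays that had not been used to call them. For this, both arrays of a replicate number were left out, and the rows called in the rest were compared between the 2 left-out arrays, a choice made after seeing the data. Without replicate 1, 1469 rows were called, and 1449 of them (98.6%) differed in the same direction between the left-out arrays. The shares were 96.7% of 1689 rows for replicate 2 and 96.6% of 2328 for replicate 3. Over all rows, called or not, they were 70.2%, 65.8% and 68.5%. Every row called at least 2-fold without a given number kept its direction in the arrays left out, 151, 168 and 219 rows in turn, and 131, 118 and 125 of them were at least 2-fold there too. For the rows called without replicate 3, the median size was 0.41 in the fit and 0.33 in the left-out arrays, against 0.46 and 0.45 for replicate 1. The left-out arrays may share a culture or a day with the others, which the labels do not say.

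For 57 clusters the arrays held a plus and a minus row. The 2 rows had differences of the same sign in 35 of the 57. In 1 cluster both rows were called, in the same direction, in 12 only one was, and in 44 neither. The median gap between the 2 rows was 0.07 on the log2 scale, and their differences correlated at 0.73 across the 57 clusters, which share the arrays and are not independent replicates. Over all cluster rows the share called was 17.8%. With so few called rows the pairs cannot tell how often a call on one row holds for the other. A call on a single row of such a cluster is given for that row only.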

How the data were processed

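Total RNA of 9 samples of cultured macrophages was hybridised to 1-colour Affymetrix arrays, per the labels' protocols. The authors deposited a table of log2 probe-set values, whose array medians are close to each other. That they are log2 values was inferred from their range, and how they were normalized, summarised and grouped into clusters is a point not given in the sources used here. In total, the gene table (assembly GRCm38.p6) named 0 of 17810 clusters, so the 26 gene lists and 11 marker lists could not be counted, apart from Tfrc, Gapdh and Actb through their control sets. The members and lists were chosen with earlier results of these data known.

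Values were used as deposited, without a filter. Groups were compared with limma 3.58.1 in R 4.3.3 (lmFit, eBayes with a mean-variance trend), with all 9 arrays in one model by group (6 residual and 3.85 prior degrees of freedom). P-values were adjusted by the Benjamini-Hochberg method over 17886 rows, namely 17867 cluster rows and 19 mouse control sets, with a threshold of 0.05. Plus and minus rows of a cluster were kept apart. The procedure was tested on simulated data with independent normal noise and the same spread of a row in all groups. The simulation therefore did not cover the wider spread of the combination arrays or a link between arrays. The rule for named genes asked for listed symbols and the 15 largest rises and falls; without names, it allowed the mouse control sets and 2 clusters in each direction. Alternatives were other scalings, variance models, arrays, a filter on dim rows, a block and arrays left out. Exact permutation tests compared single values per array. The number of arrays limits the precision.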

Additional observations from a re-analysis of the deposited data

How the results depend on the processing

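All 18 alternatives kept the direction and the call of the 3 Tfrc sets, the 3′ and middle Gapdh sets and the 4 clusters. Scaling to the hybridization controls moved the count of calls most, to 7125 rows called, 380 higher and 6745 lower, with 79 at least 2-fold higher and 176 lower and 12442 rows without overlap (the last chosen after seeing the data). In that fit the prior degrees of freedom were infinite, so that rows of like brightness were given one spread, and its p-values are not comparable with the others. Leaving out 1 array, or a replicate number in both groups, gave 1469 to 3357 rows called, 689 to 1718 higher and 780 to 1639 lower, with 84 to 151 at least 2-fold higher and 58 to 90 lower; fewer arrays enter those fits. Among these, the fit without dexa+IL4 replicate 1 gave 2048 rows called, 990 higher and 1058 lower, and the fit without replicate 2 of both groups 1689, 872 and 817. A threshold of 1.5-fold gave 323 higher and 288 lower rows. The equal replicate numbers were checked for pairing: deviations of same-numbered dexa+IL4 and combination arrays correlated at 0.22, -0.07 and 0.12. That is not above 0.1 in every pair, so the numbers were not taken to pair the arrays. The cmB16F1 arrays did not enter this check, so it cannot show a link between same-numbered arrays of cmB16F1 and the combination. With the replicate block 4153 rows were called, 2128 of them higher, and the 3′ and middle 18S sets passed (limma adjusted p = 0.0486 and 0.0387). Gapdh lost its 5′ call with scaling to the hybridization controls (0.22) and with arrays left out. Signal near the bacterial controls limits what could be seen in dim rows.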
